A study of Homo sapiens with 18 samples.

Results

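The tumour suppressor p53 is a transcription factor that is held at a low level by rapid turnover and accumulates after DNA damage, nucleolar stress or other stress. Described here are 32 of its direct target genes in ZR-75-1, an established breast cancer cell line of luminal type that carries the estrogen receptor. The members were taken as the rows of the count tables whose gene identifiers map to 32 listed symbols, with p53 targets of the BCL2 family left out, so they are 32 of 60252 genes. No expression value entered that rule, though the symbols were chosen with earlier results of these data known. Each of the 32 symbols matched 1 identifier.

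p53 binds DNA as a tetramer at a response element made of a pair of similar 10-base sites and activates genes that halt the cell cycle, repair DNA, sensitise the cell to death receptors and rewire metabolism. Among its targets are its own inhibitors, above all MDM2, the ubiquitin ligase that marks p53 for destruction, so that a rise of p53 is answered by a rise of MDM2. MDM2 and p53 thus form a negative feedback loop. Only mRNA was measured here, not p53 protein or its binding to DNA.

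Total RNA was sequenced from 2 lines, a control line labelled SHC and a line with a knockdown (KD) of ADAR, the enzyme that converts adenosine to inosine in double-stranded RNA. Each line was left untreated, given DMSO as the vehicle, or given 100 nM triptolide, which blocks RNA polymerase II through the TFIIH subunit XPB, for 16 h in medium with 1% serum. The 6 groups (untreated, DMSO and triptolide in the control and in the knockdown line) held 3 biological replicates each, numbered 1 to 3, 18 libraries in all. How the knockdown was delivered, and whether either line is a clone or a pool, is not given in the sources used here, and all cells of both lines share the serum reduction.

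Each library held between 26.7 and 35.7 times 1e6 counts in genes, and 24.9 to 35.4% of tallied reads fell in no gene. The share of counts in mitochondrial ribosomal RNA was 20.2 to 37.1% without triptolide and 42.7 to 55.2% with it, so the other RNAs of triptolide libraries were counted on a smaller share. Libraries with the same replicate number deviated together from their group means (r of 0.48 to 0.89 over 45 pairs, against -0.69 to -0.02 for 90 pairs with different numbers), and each of the 18 libraries was most like those of its own number. Deviations within a group sum to 0, so the negative values follow from the positive ones and are no separate evidence of pairing. ADAR mRNA was lower in the knockdown library in 9 of 9 pairs of equal number and treatment, at 31.2 to 77.5% of the control library. Of the luminal epithelial markers, 9 of 9 averaged at least 1 CPM (TMM-scaled counts per 1e6 counts), with a summed level of 4340 to 6330 CPM without triptolide and 3350 to 7320 CPM with it. Of these 9 markers, 4 (ESR1, FOXA1, GATA3 and XBP1) were called lower under triptolide in each line by edgeR and none higher, and with the block 6 were called lower in each line and 3 and 2 higher. Over all genes tested, 16.0% and 18.9% were called lower without the block. That level was reached by 1 of 4 basal, 1 of 6 leukocyte, 1 of 5 stromal and 1 of 2 matched endothelial markers. Their summed levels without and with triptolide were 0.276 to 3.82 and 0.774 to 6.47 CPM (basal), 3.91 to 8.03 and 3.82 to 10.4 CPM (leukocyte), 8.54 to 22.0 and 13.5 to 33.1 CPM (stromal), and 0.806 to 3.87 and 1.93 to 5.12 CPM (endothelial). The leukocyte marker CD14 rose from 0.00797 to 1.16 CPM in the control line under triptolide and the basal marker TP63 from 0.233 to 0.625 CPM (edgeR, adjusted p = 0.000138 and 0.0418), PTPRC and MS4A1 had no count in DMSO control cells, and LUM had none in any group. The low-count filter of the test could keep CD14 only through libraries where it was higher than in DMSO control cells. Its p-value is therefore no support. What part these cells or signals had in the values below was not tested.

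Candidate p53 response elements near the start sites are shown first, because such elements are how p53 recognises its direct targets, though fewer than 50% of the members held one in the window searched. A response element was searched for as 20 bases on GRCh37, a pair of adjacent 10-base sites, within 2500 bp on either side of the start of the Ensembl canonical transcript. The core of each site had to be CNNG with A or T at both N positions, and up to 2 of the other bases could differ from the p53 consensus. The consensus is its own reverse complement, so that 1 scan reads both strands, and neighbouring matches may overlap. FAS has no canonical transcript in the annotation used, which left 31 members. For 8 of the members with a match, 1 match each follows, 5' to 3' on the strand of the gene, with both cores in capitals.
PLK2: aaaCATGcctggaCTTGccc
ZMAT3: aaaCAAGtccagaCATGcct
CCNG1: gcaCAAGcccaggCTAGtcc
GADD45A: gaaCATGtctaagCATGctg
CDKN1A: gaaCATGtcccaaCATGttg
AEN: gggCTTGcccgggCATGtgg
BTG2: acgCATGttcaggCATGcat
SPATA18: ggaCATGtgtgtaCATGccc

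The printed PLK2 and ZMAT3 matches had 0 mismatches, those of CCNG1 and GADD45A had 1, and those of CDKN1A, AEN, BTG2 and SPATA18 had 2. A further match of CCNG1, centred 2360 bp from the start site, had 2 mismatches and is not printed. PLK2 carried its match upstream, at chr5:57758101-57758120, with its centre at -2198 bp from the start site, and the copy printed is the minus strand. In CDKN1A the match at chr6:36644226-36644245 lies at -2256 bp from the canonical start, where it overlaps an exon of a longer transcript. The BTG2 match at chr1:203272770-203272789 is upstream as well, and that of AEN at chr15:89164537-89164556 ends just before the gene. The matches of ZMAT3 (chr3:178787976-178787995, minus strand), CCNG1 (chr5:162864932-162864951), GADD45A (chr1:68152458-68152477) and SPATA18 (chr4:52918123-52918142) lie in introns. Of the 31 members searched, 13 (41.9%) held a match, against 440 of 19452 genes (2.26%) in windows of the same length. With at most 1 mismatch the shares were 16.1% and 0.4%, and with 0 mismatches 6.5% and 0.07%. A match describes these letters only, and p53 binding was not measured.

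In DMSO control cells, 28 of the 32 members averaged at least 1 CPM. Per kilobase of canonical transcript, TP53I3, a quinone oxidoreductase, stood highest at 79.7 CPM per kb, followed by the kinase gene PLK2 at 41.7, the cyclin gene CCNG1 at 38.8 and the damage sensor gene DDB2 at 31.1 CPM per kb. MDM2 ranked 7 of 31 at 7.85 CPM per kb and CDKN1A, which encodes the cell cycle inhibitor p21, ranked 17 at 4.33 CPM per kb. The lowest were PLK3 at 0.400, TIGAR at 0.357, EDA2R at 0.124 and SPATA18 at 0.00243 CPM per kb.

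**Figure D1:**
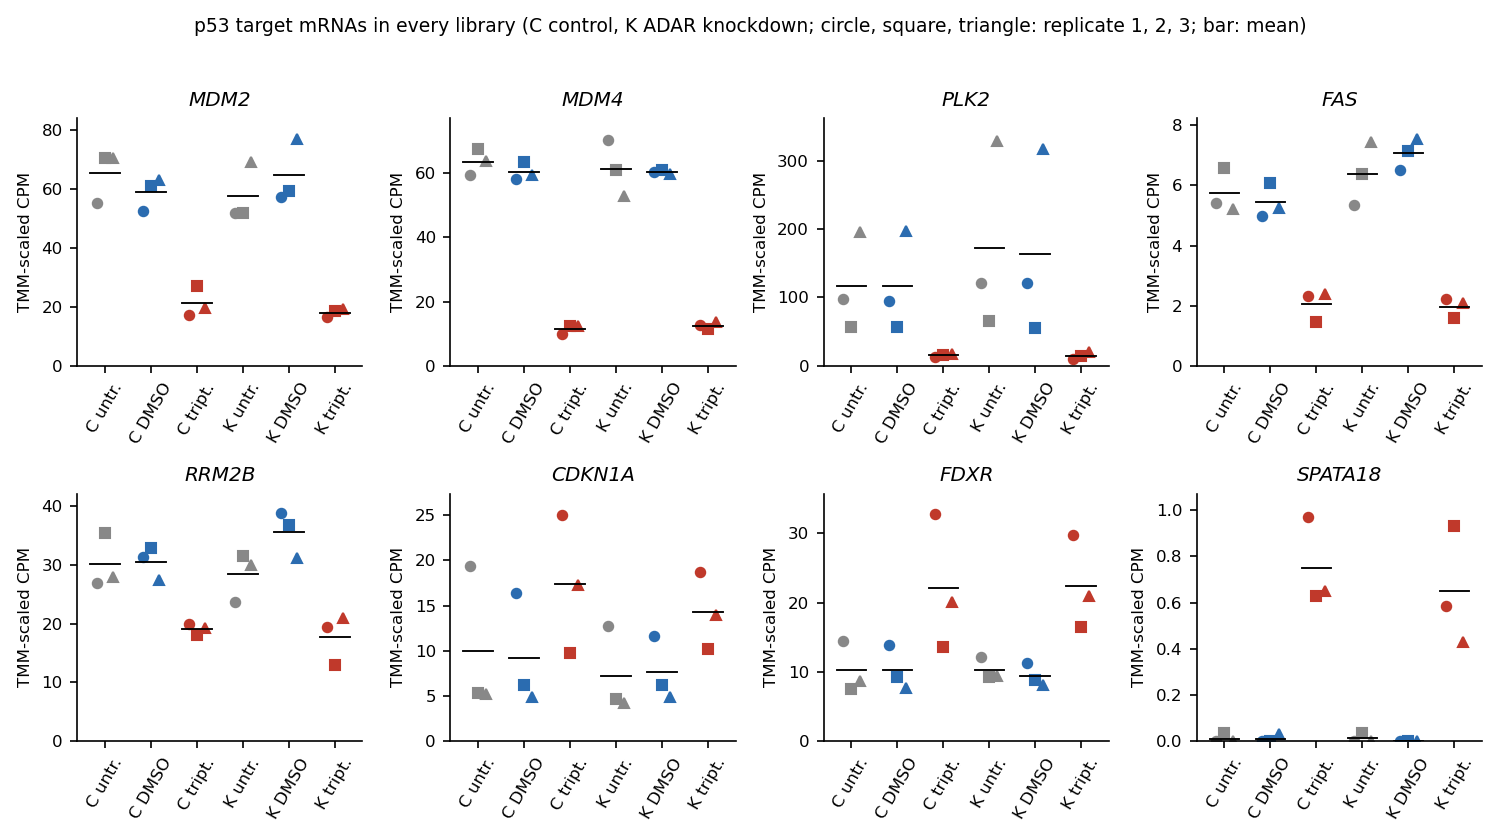
TMM-scaled CPM (vertical axes, from 0) of single members in every library, by line (C control, K ADAR knockdown) and treatment on the horizontal axes; symbols mark replicates 1 to 3 and bars the mean of 3 libraries. MDM4 and PLK2 are lower in each triptolide library than in any other, and CDKN1A is highest in replicate 1 of each group.

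Under triptolide the p53 inhibitors MDM2 and MDM4, the kinase gene PLK2, the death receptor gene FAS and the repair genes RRM2B and XPC fell in both lines. SPATA18 and FDXR, which act in mitochondria, rose in both lines, FDXR relative to the bulk of mRNAs alone. Over 32 members, edgeR called 3 higher (9.38%) and 6 lower (18.8%) in the control line, where 14.9% of all 21285 genes tested were called higher and 16.0% lower. In the knockdown line 2 members (6.25%) were called higher and 9 (28.1%) lower, against 16.7% and 18.9% of all genes. The median log2 change of the members was -0.19 in the control line and -0.25 in the knockdown line, beside medians of 0.03 and 0.04 over all genes tested. With the replicate number as a block, 6 members were called higher and 10 lower in the control line (26.1% and 26.0% of all genes), and 5 higher and 14 lower in the knockdown line (29.1% and 28.1% of all genes). Calls in both lines numbered 2 higher (FDXR and SPATA18, 6.25%) and 6 lower (MDM2, MDM4, PLK2, FAS, RRM2B and XPC, 18.8%), against 12.6% and 14.3% of all genes tested. The 3 libraries of the groups did not overlap for 3 members higher and 9 lower in the control line (20.9% and 22.2% of all genes) and for 3 higher and 13 lower in the knockdown line (24.0% and 24.7%). All 32 members passed the low-count filter, SPATA18 through its triptolide libraries alone, so it had to differ. EDA2R passed through libraries without triptolide alone, so its call as lower in the knockdown line is no support for a fall. In bulk RNA, fewer cells of a kind and less RNA per cell cannot be told apart.

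SPATA18 rose on both scales tried in both lines, whereas most other increases did not keep their direction. MDM2, MDM4, PLK2, FAS, RRM2B and XPC fell on both scales, as did every member below 0 under TMM. Scaling to mitochondrial mRNAs shifted changes downwards, so that agreement is no support for a fall. TMM sets the bulk of genes to no change, while scaling to the 13 mitochondrial mRNAs, which RNA polymerase II does not make, shifted the median of all genes to -0.79 in the control line and -1.37 in the knockdown line. Without triptolide it also moved that median, to -0.215 (control line) and 0.54 (knockdown line) for DMSO against untreated. For knockdown against control the median was -0.208 untreated and 0.558 in DMSO. The mitochondrial scale is thus no steady reference, and the sign of a change smaller than these shifts is open on it. On that scale the members' medians were -0.99 and -1.75, and the members above 0 numbered 3 (FDXR, SPATA18 and TP53INP1) and 1 (SPATA18), beside 15 and 12 under TMM. All genes called then split into 1064 higher and 5988 lower in the control line and 827 and 11413 in the knockdown line, against 3162 and 3403 and 3560 and 4029 under TMM. Relative to the shifted median of all genes, 15 members lay above and 17 below in the control line, and 12 and 20 in the knockdown line, as under TMM relative to 0. Changes below are on the TMM scale, hence relative to the bulk of mRNAs.

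**Figure D2:**
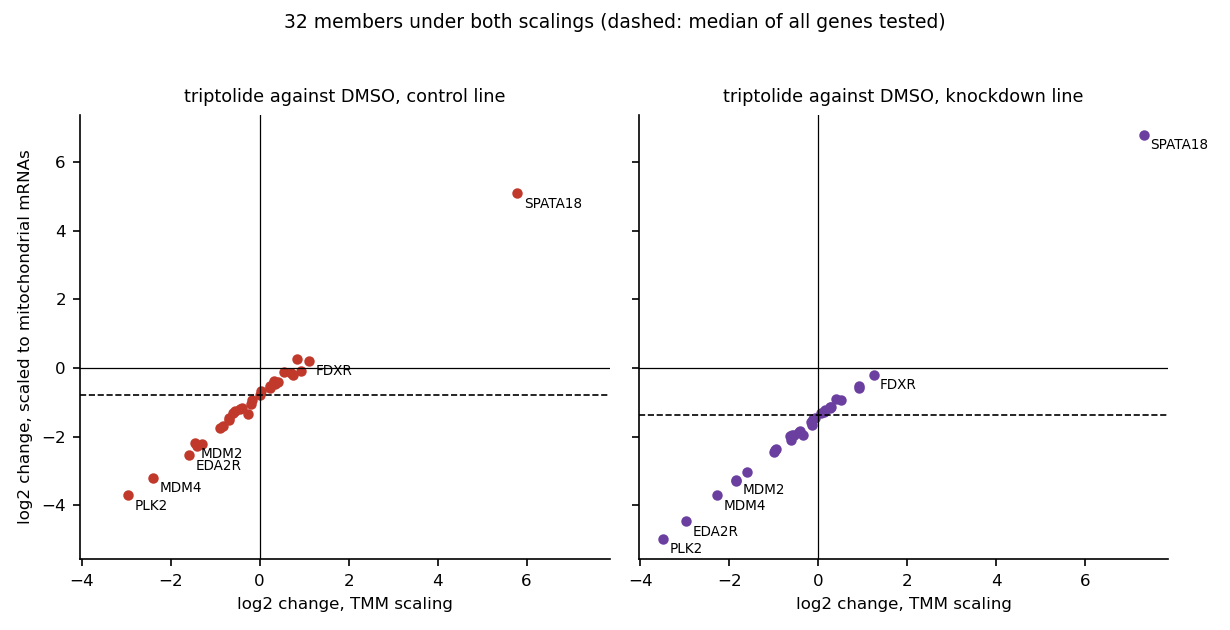
Log2 change of the 32 members under triptolide against DMSO with TMM scaling (horizontal axes) and with scaling to mitochondrial mRNAs (vertical axes), one panel per line; dashed lines mark the median of all genes tested. Members shift down with the median of all genes, so that 3 in the control line and 1 in the knockdown line stay above 0 on the vertical axis.

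Of the 5 feedback regulators of p53, 2 (40%) fell in both lines and none rose, where 14.3% of all genes were called lower in both lines. MDM4 binds p53 and masks its activation domain, and its fitted change was greater than that of its partner MDM2 in both lines, a difference between genes that was not tested. In control cells MDM4 (chr1:204485507-204527248, GRCh37) read 59.6, 67.5 and 63.9 CPM untreated, 58.1, 63.4 and 59.6 CPM in DMSO and 9.90, 12.4 and 12.4 CPM in triptolide (replicates 1 to 3, as in each series of values below). In knockdown cells it read 70.5, 60.9 and 52.8 CPM untreated, 60.3, 61.1 and 59.7 CPM in DMSO and 12.6, 11.3 and 13.6 CPM in triptolide. The triptolide libraries lay far below all others, and the untreated and DMSO libraries overlapped. The log2 change was -2.39 ± 0.17 (SE) in the control line and -2.27 ± 0.17 in the knockdown line (edgeR quasi-likelihood test, adjusted p = 1.31e-07 and 1.53e-07, n = 3 per group).

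MDM2 (chr12:69201957-69239324) read 55.0, 70.4 and 70.5 CPM in untreated, 52.3, 61.0 and 63.0 CPM in DMSO and 17.3, 27.1 and 19.5 CPM under triptolide in control cells. Its knockdown values were 51.9, 51.9 and 68.9 CPM untreated, 57.3, 59.2 and 76.9 CPM in DMSO and 16.4, 18.5 and 19.04 CPM in triptolide. No triptolide library reached the lowest library without triptolide. MDM2 mRNA thus fell 2.76-fold and 3.58-fold, by 1.46 ± 0.21 and 1.84 ± 0.21 on the log2 scale (edgeR, adjusted p = 7.15e-05 and 7.11e-06). Exons of MDM2 overlap those of the carboxypeptidase M gene on the opposite strand, and whether reads were counted by strand is not given in the sources used here. The same holds for 13 of the 32 members, FAS (with ACTA2), APAF1 and XPC included.

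The other 3 feedback genes were not called by edgeR without the block. CCNG1, whose cyclin G1 brings a phosphatase to MDM2, averaged 94.7 ± 26.9 CPM (SD, n = 3) in DMSO and 96.6 ± 27.2 CPM under triptolide in control cells. PPM1D, the phosphatase WIP1 that switches the damage response off, averaged 15.8 ± 1.51 and 19.8 ± 4.54 CPM. FBXO22, an F-box protein that targets methylated p53, averaged 61.6 ± 5.93 and 46.3 ± 7.36 CPM in the knockdown line, and was called lower in both lines only with the block (edgeR, adjusted p = 0.0168 and 0.00944). PPM1D and CCNG1 were called by neither fit.

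Among the 6 genes of growth arrest, PLK2 fell, BTG2 rose in the control line, and CDKN1A was called only once the replicate number was taken into account. PLK2 encodes a polo-like kinase that acts on centrioles and in the stress checkpoint, and its gene carries the match without mismatches printed above. PLK2 (chr5:57749809-57755966) read 97.1, 57.3 and 196 CPM in untreated, 94.6, 56.9 and 197 CPM in DMSO and 12.2, 16.1 and 16.6 CPM under triptolide in control cells. Its knockdown values were 122, 66.2 and 329 CPM untreated, 121, 54.7 and 317 CPM in DMSO and 9.72, 14.01 and 20.2 CPM in triptolide. Replicate 3 was highest and replicate 2 lowest in each group without triptolide, and under triptolide, where all libraries were low, replicate 1 was lowest. The log2 change was -2.95 ± 0.67 in the control line and -3.49 ± 0.69 in the knockdown line (edgeR, adjusted p = 0.00305 and 0.000897). Without the DMSO library of replicate 3 it was -2.34 and -2.58 (edgeR, adjusted p = 0.0186 and 0.00607).

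CDKN1A (chr6:36644237-36655114) read 19.4, 5.27 and 5.25 CPM in untreated, 16.4, 6.17 and 4.93 CPM in DMSO and 25.0, 9.77 and 17.3 CPM under triptolide in control cells. In the knockdown line the values were 12.7, 4.64 and 4.18 CPM untreated, 11.6, 6.26 and 4.91 CPM in DMSO and 18.7, 10.2 and 13.9 CPM in triptolide. The groups overlapped because replicate 1 was high throughout, yet in 3 of 3 pairs of each line the triptolide library was above the DMSO library of its number. The log2 change was 0.92 ± 0.58 and 0.91 ± 0.58 without the block (edgeR, adjusted p = 0.248 and 0.236). In control-line fits without the block it was 1.65 without DMSO replicate 1 and 0.56 without triptolide replicate 1, neither called (edgeR, adjusted p = 0.0657 and 0.569). With the block it was 1.04 ± 0.24 and 0.98 ± 0.24 (edgeR, adjusted p = 0.00132 and 0.00182), and scaled to mitochondrial mRNAs it was -0.08 and -0.53. Relative to other mRNAs, p21 mRNA thus rose in the comparison within replicate numbers only.

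BTG2, an antiproliferative cofactor of mRNA deadenylation, averaged 10.7 ± 3.67 CPM in DMSO and 17.3 ± 1.10 CPM under triptolide in control cells, a log2 change of 0.70 ± 0.25 that turned to -0.14 when scaled to mitochondrial mRNAs (edgeR, adjusted p = 0.039 and 0.839). That call was lost without any one of 5 of the 6 libraries compared (edgeR, adjusted p of 0.0627 to 0.18), the exception being DMSO replicate 2. In knockdown cells BTG2 read 13.6 ± 2.02 and 16.2 ± 1.42 CPM and was not called (log2 0.26 ± 0.24, edgeR, adjusted p = 0.434). PLK3, a stress kinase at or under 1.59 CPM on average, was called higher with the block alone in both lines (edgeR, adjusted p = 0.0293 and 0.0177), with changes of -0.21 and -0.59 when scaled to mitochondrial mRNAs. ZMAT3, an RNA-binding zinc finger protein with the other exact match printed above, averaged 9.23 ± 2.0 CPM in DMSO and 6.00 ± 1.79 CPM in triptolide knockdown cells. GADD45A, a stress sensor that binds PCNA and p21, averaged 4.52 ± 0.280 and 3.00 ± 0.701 CPM there. Both were called lower in the knockdown line with the block only (edgeR, adjusted p = 0.00464 for ZMAT3 and 0.0271 for GADD45A).

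**Figure D3:**
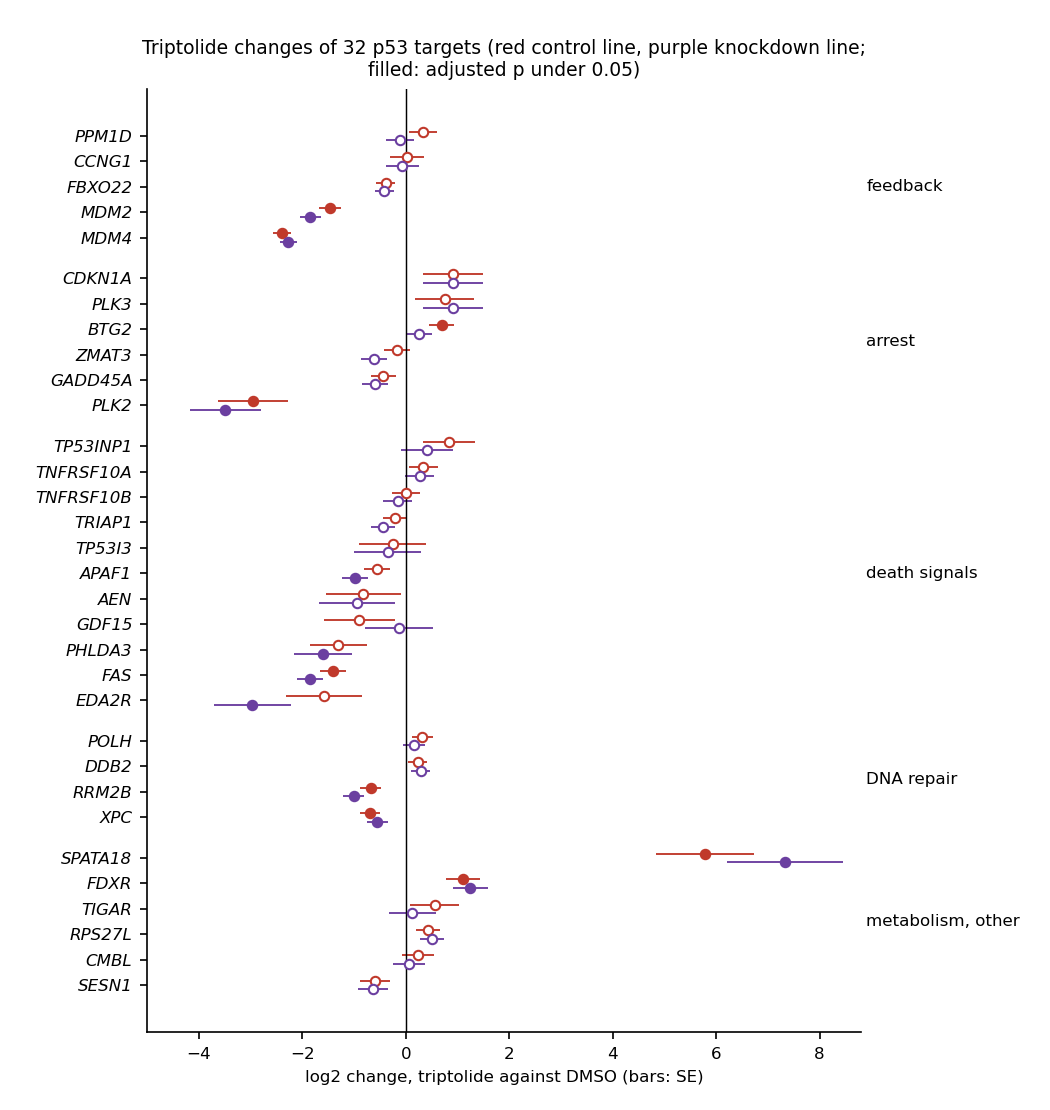
Log2 change of the 32 members under triptolide against DMSO (horizontal axis, with SE bars) in the control line (red) and the knockdown line (purple), filled where edgeR's adjusted p is under 0.05. MDM4 and PLK2 lie farthest to the left in the control line and SPATA18 farthest to the right in both; the change of FDXR turns to -0.20 in the knockdown line when scaled to mitochondrial mRNAs.

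Of 11 genes of death signalling, 1 (9.09%) was called lower in the control line and 4 (36.4%) in the knockdown line, against 16.0% and 18.9% of all genes. The 4 include EDA2R, which passed the low-count filter through libraries without triptolide alone, so the knockdown share is no support for a fall of the group. None was called higher without the block, against 14.9% and 16.7% of all genes. FAS is a death receptor that recruits caspase 8 on binding its ligand. FAS (chr10:90750414-90775542) read 5.43, 6.58 and 5.22 CPM in untreated, 4.996, 6.08 and 5.25 CPM in DMSO and 2.33, 1.45 and 2.402 CPM under triptolide in control cells. In knockdown cells it read 5.36, 6.37 and 7.44 CPM untreated, 6.52, 7.14 and 7.54 CPM in DMSO and 2.20, 1.59 and 2.07 CPM in triptolide. The triptolide libraries were all below the others. FAS fell by 1.40 ± 0.25 and 1.85 ± 0.25 on the log2 scale (edgeR, adjusted p = 0.000501 and 3.94e-05).

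The TRAIL receptors, the other death receptors of the set, behaved differently from FAS in level: TNFRSF10A averaged 12.2 ± 2.91 CPM in DMSO and 15.4 ± 2.34 CPM under triptolide in control cells, and TNFRSF10B 25.8 ± 6.96 and 25.9 ± 7.56 CPM. Neither was called in either line with or without the block. APAF1, the scaffold of the apoptosome, fell in the knockdown line from 13.7 ± 2.72 to 6.97 ± 0.478 CPM (log2 -0.98 ± 0.25, edgeR, adjusted p = 0.00638). In the control line its change of -0.56 ± 0.25 was called only with the block (edgeR, adjusted p = 0.105 and, with the block, 0.0104). PHLDA3, a repressor of AKT, read 8.13, 4.30 and 4.08 CPM in DMSO and 2.92, 1.26 and 1.29 CPM in triptolide knockdown cells, and fell by 1.60 ± 0.55 on the log2 scale (edgeR, adjusted p = 0.0322). Leaving out DMSO replicate 1, triptolide replicate 2 or triptolide replicate 3 of that line ended the call (edgeR, adjusted p = 0.136, 0.111 and 0.107). In the control line PHLDA3 was lower in 3 of 3 pairs, with adjusted p = 0.0793 by edgeR and 1.23e-05 with the block.

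EDA2R, a receptor of ectodysplasin A2, was counted 89 times over the 3 DMSO libraries and 7 times over the 3 triptolide libraries of the knockdown line, a ratio of 0.124 at equal depth (95% interval of 0.0485 to 0.267, counting error only). Its log2 change was -2.97 ± 0.75 (edgeR, adjusted p = 0.00509). The low-count filter kept EDA2R through libraries without triptolide alone, where it was higher, so that filtered test is no support for the fall. In the control line the counts were 45 and 9 and the change was not called (edgeR, adjusted p = 0.114). TP53INP1, a stress protein of autophagy and death, was called higher with the block in the control line alone, from 10.4 ± 4.44 to 18.5 ± 11.4 CPM (edgeR, adjusted p = 0.00651), and whether the lines differed was tested below. TRIAP1, an inhibitor of apoptosis, was called lower with the block in the knockdown line, from 19.7 ± 2.60 to 14.6 ± 1.91 CPM (edgeR, adjusted p = 0.0134). AEN, a nuclease of apoptotic DNA breakdown, TP53I3, and the stress cytokine gene GDF15 at 0.308 to 0.601 CPM on average, were called in neither line by either fit.

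Of 4 DNA repair genes, RRM2B and XPC (50%) fell in both lines, against 14.3% of all genes, and the other members were not called. RRM2B, the p53-induced subunit of ribonucleotide reductase encoded on chromosome 8, read 27, 35.4 and 27.9 CPM in untreated, 31.3, 32.9 and 27.4 CPM in DMSO and 19.9, 18.1 and 19.2 CPM under triptolide in control cells. Its knockdown values were 23.8, 31.6 and 30.0 CPM untreated, 38.9, 36.9 and 31.2 CPM in DMSO and 19.4, 12.98 and 20.9 CPM in triptolide. Every triptolide library lay below every library without triptolide. The log2 change was -0.68 ± 0.20 and -1.002 ± 0.20 (edgeR, adjusted p = 0.0161 and 0.00103), and in the control line the call was lost without DMSO replicate 2 (edgeR, adjusted p = 0.0617).

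XPC, which finds distorted DNA for nucleotide excision repair, read 19.3, 20.9 and 18.02 CPM in DMSO and 10.6, 14.8 and 10.8 CPM under triptolide in control cells. In knockdown cells it read 19.7, 20.2 and 18.6 CPM in DMSO and 13.4, 13.7 and 13 CPM in triptolide. The groups did not overlap in either line, and the log2 changes were -0.69 ± 0.20 and -0.55 ± 0.20 (edgeR, adjusted p = 0.0132 and 0.0375). The control call was lost without DMSO replicate 2, triptolide replicate 1 or triptolide replicate 3 (edgeR, adjusted p = 0.0533, 0.06 and 0.0514), and the knockdown call without any one of its 6 libraries (0.0637 to 0.0905). DDB2, the partner of XPC in damage recognition, averaged 56.4 ± 10.8 and 66.2 ± 7.73 CPM in the control line, and POLH, a polymerase that copies past lesions, 20.4 ± 3.66 and 25.5 ± 7.30 CPM, neither called.

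Of 6 metabolic targets 2 (33.3%), FDXR and SPATA18, rose in both lines, against 12.6% of all genes, and none fell without the block. The low-count filter kept SPATA18 through its triptolide libraries alone, so that share is no support for a rise of the group. FDXR, the ferredoxin reductase that feeds electrons to mitochondrial steroid and iron-sulfur synthesis, lies at chr17:72858619-72869156. It read 14.4, 7.56 and 8.73 CPM in untreated, 13.9, 9.19 and 7.64 CPM in DMSO and 32.8, 13.6 and 20.1 CPM under triptolide in control cells. In knockdown cells it read 12.2, 9.25 and 9.41 CPM untreated, 11.3, 8.88 and 8.17 CPM in DMSO and 29.8, 16.5 and 21.01 CPM in triptolide. Replicate 1 was highest in each group, and in the control line the lowest triptolide library overlapped the highest DMSO library. FDXR rose by 1.11 ± 0.34 and 1.246 ± 0.34 on the log2 scale (edgeR, adjusted p = 0.0179 and 0.00796), whereas scaled to mitochondrial mRNAs the changes were 0.21 and -0.20 (edgeR, adjusted p = 0.76 and 0.722). The control call was lost without DMSO replicate 2, DMSO replicate 3 or triptolide replicate 1 (edgeR, adjusted p = 0.0563, 0.0837 and 0.133).

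SPATA18, or Mieap, a protein of mitochondrial quality control, lies at chr4:52917470-52963465 and was the member with the greatest change in both lines. Over 3 libraries each, control cells gave 1 count untreated, 1 count in DMSO and 49 counts with triptolide. Per library these were 0, 1 and 0, then 0, 0 and 1, then 23, 13 and 13. In knockdown cells the untreated libraries held 0, 1 and 0 counts, the DMSO libraries 0 each and the triptolide libraries 13, 20 and 12. At equal depth the control ratio was 80.5 (95% interval of 13.8 to 3240, counting error only), and the knockdown level was at least 23.7-fold higher under triptolide, taken against a floor of 3 counts over the DMSO group, where no count was seen (the 95% lower limit of that ratio from counting error alone was 18.5). The low-count filter kept this gene through the libraries where it was high, so the filtered test is no support. Over all genes without that filter, edgeR called the rise in both lines (adjusted p = 3.44e-06 and 2.85e-07). The mRNA remained scarce, at 0.751 ± 0.193 CPM under triptolide in control cells, and its intron holds the match printed above.

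The remaining metabolic genes were called with the block or not at all. SESN1, a sestrin that restrains mTORC1, was called lower in both lines, from 8.25 ± 1.09 to 5.48 ± 1.54 CPM in the control line (edgeR with the block, adjusted p = 0.00615 and 0.00239). RPS27L, a ribosomal protein paralogue, was called higher in the knockdown line, from 33.7 ± 5.43 to 47.9 ± 9.07 CPM (edgeR with the block, adjusted p = 0.0132), with a change of -0.93 when scaled to mitochondrial mRNAs. TIGAR, which diverts glucose to the pentose phosphate pathway, averaged 2.93 ± 1.18 and 4.31 ± 1.38 CPM in the control line, and CMBL, a hydrolase, 12.7 ± 3.72 and 14.95 ± 1.76 CPM. Of the 32 members, 20 (62.5%) were called in neither line without the block and 11 (34.4%) in neither line by either fit, close to the 60.5% and 36.5% of all genes tested.

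The response of the targets to triptolide was then compared between the lines, which asks whether reduced ADAR changes it. No member was called for the difference of the responses by edgeR, with the block, or by DESeq2, and 0 members had an unadjusted p under 0.05, where 0.0% of all genes were called (0.0047% higher with the block). The median difference over the members was -0.16 (all genes, -0.02), with a median SE of 0.40 on the log2 scale, or 0.25 with the block. The difference was -0.01 ± 0.82 for CDKN1A. A call in one line alone, as for BTG2, APAF1, PHLDA3, EDA2R or TP53INP1, is therefore no evidence that the lines differ, nor is the absence of a call evidence that they respond alike. At this precision, differences of the size of 1 SE cannot be resolved.

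Knockdown and control cells were compared directly in each treatment, and none of the 3 comparisons called a target. The count was 0 of 32 by edgeR with or without the block and by DESeq2, where 0.0282% of all genes were called higher and 0.0705% lower in untreated cells. In DMSO the background was 0.0376% and 0.0564%, and in triptolide 0.0188% and 0.047%. With the block these shares were 0.301% and 0.277%, 0.357% and 0.249%, and 0.385% and 0.258%. Median log2 differences of the members were -0.04, 0.01 and -0.11, with a median SE of 0.28 in each. Unadjusted p-values under 0.05 numbered 1, 0 and 1, both times GADD45A.

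GADD45A (chr1:68150884-68154017), named after its values were seen, was the single member lower in the knockdown library in 9 of 9 pairs of equal number and treatment, a pattern met by 1.93% of all genes tested. It read 7.88, 5.54 and 7.63 CPM in untreated, 5.74, 5.01 and 8.15 CPM in DMSO and 4.70, 4.83 and 4.45 CPM under triptolide in control cells. In knockdown cells it read 4.12, 4.96 and 4.03 CPM, then 4.78, 4.55 and 4.23 CPM, then 2.43, 3.78 and 2.79 CPM. Per pair the level was 51.7 to 90.9% of control. In each treatment the highest knockdown library was below the lowest control library, but the share of all genes with that pattern was not counted. It is therefore no added support for a difference. Of the 32 members, 1, 1 and 2 were apart in this direction in untreated, DMSO and triptolide cells, and 0, 2 and 0 in the other. The log2 differences were -0.68 ± 0.25, -0.48 ± 0.25 and -0.64 ± 0.25, and none passed the test (edgeR, adjusted p = 1.0 in each; with the block 0.236, 0.627 and 0.356). No member was higher in 9 of 9 pairs, which 1.89% of all genes were. CDKN1A was lower in 7 of 9 pairs, at 65.6 to 105% of control, and MDM2 in 7 of 9 pairs, at 68.4 to 122%.

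**Figure D4:**
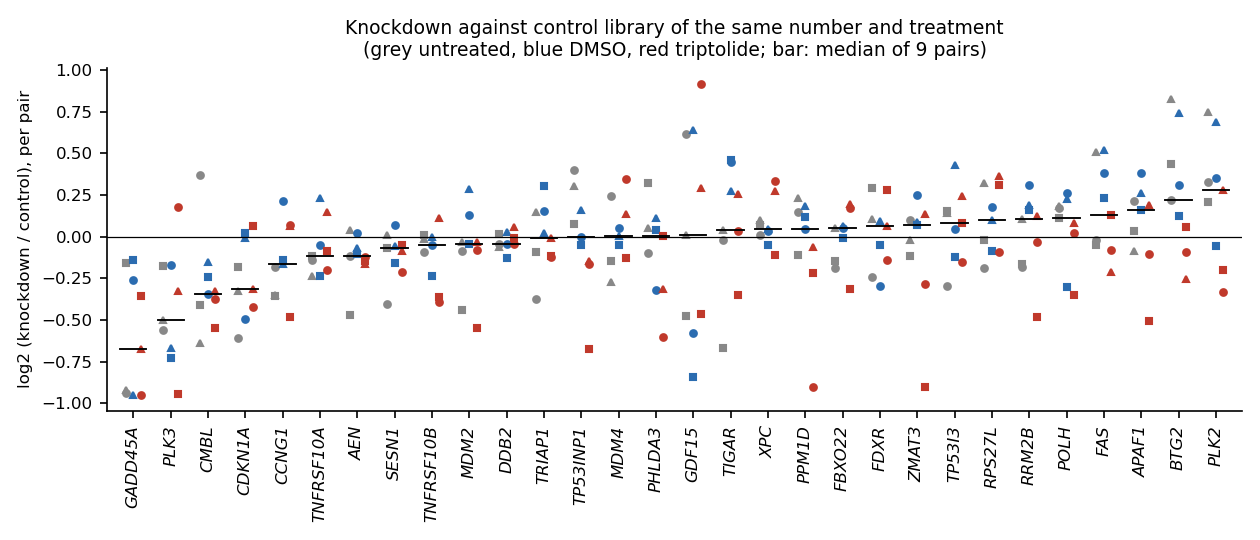
Log2 ratio of the knockdown to the control library of the same replicate number and treatment (vertical axis) for each member with a ratio in all 9 pairs (horizontal axis, ordered by median), coloured by treatment, with a bar at the median of the 9 pairs. EDA2R and SPATA18, which had libraries without a count, are not drawn. The points of GADD45A all lie below 0, at 51.7 to 90.9% of control, and most other members have points on both sides of 0.

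The vehicle had no called effect on these genes. DMSO against untreated cells gave 0 of 32 calls in either line by edgeR, with or without the block, and by DESeq2, with 0 members at an unadjusted p under 0.05 and 0.0% of all genes called. The median log2 differences of the members were -0.03 in the control line and 0.00 in the knockdown line, with a median SE of 0.28.

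Among the 12 untreated and DMSO libraries, many targets differed by replicate number. Each number has 4 such libraries, from both lines. For 18 of 32 members (56.2%) the 4 libraries of a number all lay above or all lay below the other 8, against 38.5% of all genes tested. Replicate 1 was above the rest for AEN, CDKN1A, FDXR, PHLDA3 and TNFRSF10B (9.01% of all genes) and below for PPM1D (8.17%). Replicate 2 was below for 7 members, among them AEN, PLK2, TP53I3 and ZMAT3 (9.79%), and above for APAF1, CCNG1, CMBL and TP53INP1 (10.4%). Replicate 3 was above for FBXO22, PLK2 and TIGAR (3.84%) and below for DDB2 (3.87%). What the numbers stand for in the laboratory is not given in the sources used here, and its part in these levels was not tested.

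AEN had the widest spread of this kind. Without triptolide it stood at 62.4 to 70.0 CPM in replicate 1, 7.32 to 12.6 CPM in replicate 2 and 39.4 to 44.1 CPM in replicate 3, a 6.22-fold ratio between the highest and lowest number means. Under triptolide the number means were 27.1, 17.4 and 18.5 CPM and the ratio was 1.56. PLK2 narrowed from a ratio of 4.42 to 1.68, whereas TP53I3 widened from 2.66 to 6.04. TP53I3 stood at 155 to 197, 63.2 to 75.3 and 136 to 183 CPM by number without triptolide, and at 131 to 146, 27.7 to 29.4 and 158 to 187 CPM with it. For CDKN1A the ratios were 3.12 and 2.19, with 11.6 to 19.4 CPM in replicate 1 and 4.18 to 6.26 CPM in the others. MDM2 and MDM4 varied little by number, with ratios of 1.29 and 1.07. Without triptolide, high CDKN1A mRNA in replicate 1 thus came with high AEN, FDXR, PHLDA3 and TNFRSF10B and low PPM1D, but not with high MDM2. Between replicates 2 and 3 the number means of AEN were 10.5 and 41.9 CPM, and those of CDKN1A 5.59 and 4.82 CPM.

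**Figure D5:**
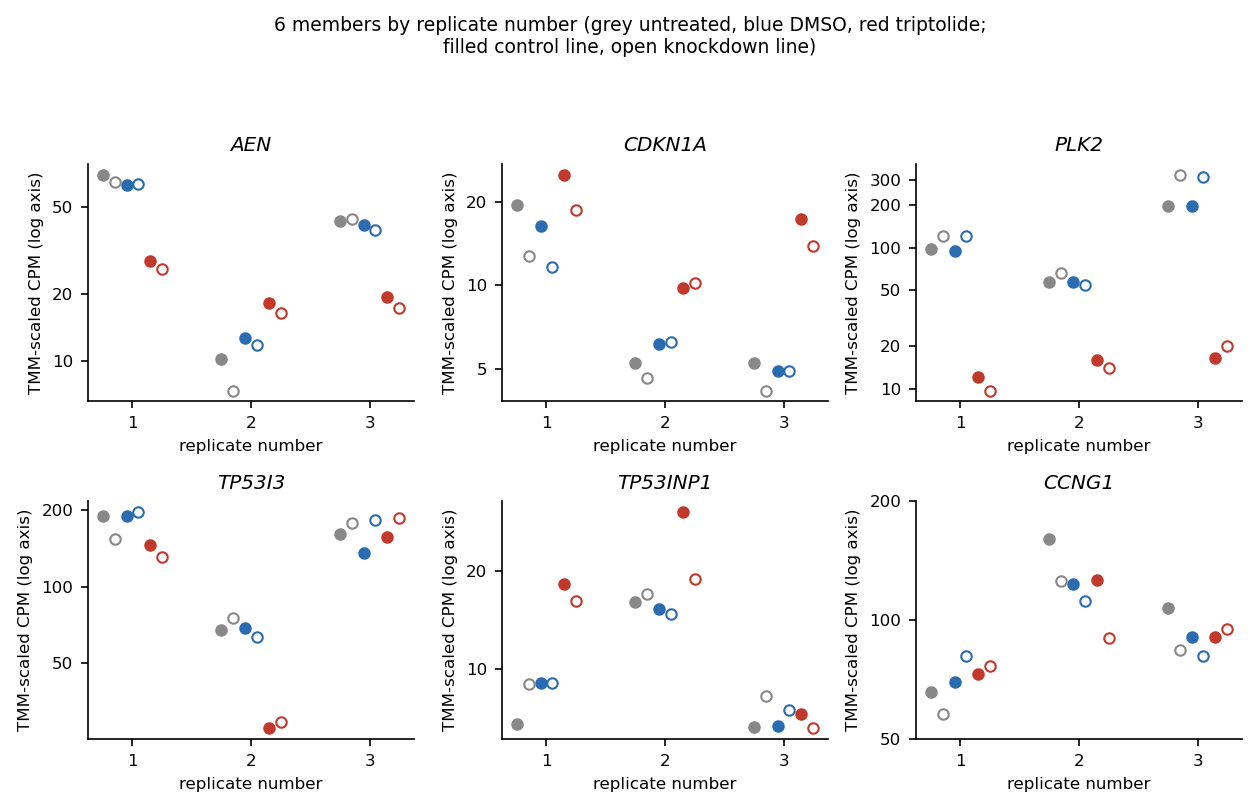
TMM-scaled CPM (vertical axes, log scale) of 6 members by replicate number (horizontal axes), coloured by treatment and filled for the control line. AEN spans 7.32 to 70.0 CPM without triptolide in the order of replicates 1, 3 and 2, in both lines, and narrows under triptolide.

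The wider pathway was described with 4 further lists. Over all genes tested, edgeR called 14.9% higher and 16.0% lower in the control line, and 16.7% and 18.9% in the knockdown line. Of 30 homologues and regulators of p53, 2 (6.67%) were called higher and 16 (53.3%) lower in each line, with median log2 changes of -0.68 and -0.69. The higher ones were TP63, a p53 homologue, and RPL11, a ribosomal protein that can bind MDM2, the latter with a change of -0.12 and -0.59 when scaled to mitochondrial mRNAs and a level of 888 CPM in DMSO and 1378 CPM under triptolide in control cells. Among the lower ones, the acetyltransferase gene KAT5 changed by -2.89 ± 0.29 and -3.37 ± 0.30, and MAPK14, the p38 kinase, by -1.22 ± 0.15 and -1.48 ± 0.16. TP53BP1, a p53-binding repair protein, changed by -1.15 ± 0.15 and -1.39 ± 0.15. Between the lines, TP53BP2 was higher in knockdown cells with the block only, at 132 against 88.1 CPM untreated and 136 against 81.7 CPM in DMSO (edgeR, adjusted p = 0.0347 and 0.00565).

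Of 52 further p53 targets 46 were tested, and 3 (6.52%) were called higher and 7 (15.2%) lower in each line (with the block 9 and 13, then 11 and 18). The shares of all genes were 14.9% and 16.0% in the control line and 16.7% and 18.9% in the knockdown line. With the block they were 26.1% and 26.0%, then 29.1% and 28.1%. ATF3, a stress-induced transcription factor, rose 5.83-fold to 54.9 ± 9.78 CPM in control and 4.34-fold to 44.4 ± 6.57 CPM in knockdown cells. PERP, a desmosomal effector of death, and VWCE rose too, by 0.95 ± 0.27 and 1.89 ± 0.55 on the log2 scale in the control line, though PERP changed by -0.59 in the knockdown line when scaled to mitochondrial mRNAs. TRAF4 and DCP1B fell in both lines, by 1.45 ± 0.24 and 1.79 ± 0.32 in the control line, RAP2B fell by 1.27 ± 0.33 in the control line and BTG1 by 1.85 ± 0.34 in the knockdown line. Of 5 BCL2-family targets, PMAIP1, the BH3-only protein NOXA, rose 4.89-fold to 22.7 ± 6.81 CPM and 3.50-fold to 20.8 ± 4.04 CPM, and no other was called without the block. ATF3, VWCE and PMAIP1 stayed above 0 in both lines when scaled to mitochondrial mRNAs.

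Genes that p21 silences through the DREAM complex in p53-active cells were the last list. Of 24 such cell cycle genes, 12 (50%) fell and none rose in the control line, and 16 (66.7%) fell and none rose in the knockdown line, with medians of -0.91 and -1.21. Of all genes tested, 16.0% and 18.9% were called lower and 14.9% and 16.7% higher. BUB1B, a spindle checkpoint kinase, fell by 2.25 ± 0.31 and 2.47 ± 0.32, and CCNB1, cyclin B1, by 2.04 ± 0.39 and 2.53 ± 0.39 on the log2 scale. CDK1 fell from 146 ± 8.94 to 78.7 ± 12.5 CPM in control cells and CENPF from 355 ± 104 to 77.7 ± 32.2 CPM in knockdown cells. All genes of these lists named as changed, apart from TP53BP2, passed edgeR's adjusted p of 0.05 without the block, and the lists overlap the p53 pathway by choice, so their counts are descriptions beside the backgrounds given above.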

How the data were processed

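The authors used STAR 2.4.2a with hg19 for alignment and HTSeq 0.6.1 for counting, per the submitters' processing notes. Each deposited file gives the raw counts of 1 library, and its 5 tallies of unassigned reads were left out. The strand setting and annotation release are not given in the sources used here. Of 60252 identifiers, 58821 (97.6%) matched GENCODE release 44 lifted to GRCh37.

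Counts were scaled by TMM and tested two-sided with edgeR 4.0.16 (quasi-likelihood, R 4.3.3) in 1 fit of 18 libraries (12 residual degrees of freedom). Its low-count filter by group left 21285 genes, and p-values were adjusted over all of them by Benjamini-Hochberg within each of 8 comparisons, with calls under 0.05. Because equal replicate numbers pair the libraries by their residuals (14390 genes of at least 1 CPM), a blocked fit (the number as a factor, 10 residual degrees of freedom) appears where it changes a call. Alternatives were DESeq2 1.42.0, RLE scaling, scaling to 13 mitochondrial mRNAs, no low-count filter, only the libraries compared, and leaving out each library. The fits that left out a library had no block, and each broke a pair of equal replicate number. Whether a call within replicate numbers depends on 1 library was not tested. No replicates were copies: chi-square per degree of freedom between them was at least 53.4.

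The members and lists were chosen with earlier results of these data known. Values in every library are given for CDKN1A, MDM2, up to 5 members per direction called under triptolide in both lines, and any member called in another comparison. From the other lists up to 3 called genes per direction with the smallest p are named. Some genes of the list of p53 homologues and regulators are not reported here and were left out of its counts.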

Additional observations from a re-analysis of the deposited data

How the results depend on the processing

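The members called under triptolide numbered 9 in the control line and 11 in the knockdown line. With the replicate block they numbered 16 and 19, and with scaling to mitochondrial mRNAs 12 and 26 (1 higher and 25 lower in the knockdown line), where the shifted scale moves all genes down. Leaving out 1 library gave 6 to 8 and 9 to 11 calls. DESeq2, RLE scaling, no low-count filter and only the libraries compared gave 9, 9, 10 and 7 calls in the control line and 12, 10, 12 and 11 in the knockdown line. The other 6 comparisons gave 0 calls of members under each alternative, from 0 to 0 when 1 library was left out. MDM2, MDM4, FAS and PLK2 kept their call and direction in both lines under each alternative. Of these alternatives, scaling to mitochondrial mRNAs shifted changes downwards and so was no test of a fall. Scaling to mitochondrial mRNAs took the members above 0 from 15 to 3 in the control line and from 12 to 1 in the knockdown line. The reversed ones included BTG2 at -0.14 and -1.13, CDKN1A at -0.08 and -0.53, PLK3 at -0.21 and -0.59, and FDXR in the knockdown line at -0.20. The control calls of BTG2 and XPC also ended with only the libraries compared (edgeR, adjusted p = 0.0873 and 0.0667), that of BTG2 without the filter (0.194) and the knockdown call of XPC with RLE scaling (0.0635) or without the filter (0.107).

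Over all genes, calls under triptolide rose from 3162 higher and 3403 lower to 5555 and 5535 with the block in the control line, and from 3560 and 4029 to 6187 and 5976 in the knockdown line. Between the lines, calls in untreated, DMSO and triptolide cells numbered 6 higher and 15 lower, 8 and 12, and 4 and 10. With the block these became 64 and 59, 76 and 53, and 82 and 55, with DESeq2 26 and 28, 23 and 20, and 20 and 20, and without the low-count filter 59 and 32, 46 and 28, and 40 and 20. With only the libraries compared they were 2 and 3, 2 and 2, and 2 and 6, and with scaling to mitochondrial mRNAs 5 and 8, 12 and 4, and 3 and 5. Without the filter DMSO against untreated gave 25 lower genes in the knockdown line, and the difference of the responses 2 higher and 1 lower, none a member. The cause of these shifts was not tested. Depth limits SPATA18, EDA2R and GDF15, whose group means stay under 1 CPM.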
